A study of Mus musculus with 4 samples.

Results

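The genes described here are 37 named genes of the neuronal cytoskeleton, the growth cone, the synaptic vesicle and neuronal RNA control, out of 24771 features with an expression value. They were listed by symbol, and the list was chosen by the values of the same comparison that is described below, with the expression of such genes in both sample groups already known. The differences of these 37 genes between the groups are therefore given as a description, without p-values. All 37 symbols were found once each in the data. For the purpose of description they were grouped by role into 8 tubulin and microtubule genes, 5 genes of neuronal intermediate filaments, 5 growth cone genes, 10 genes of synaptic vesicles and membrane fusion, 6 genes of neuronal RNA-binding proteins, 2 genes of bHLH transcription factors and Uchl1, a ubiquitin hydrolase.

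The study derived SG placodes, the thickened epithelium from which a salivary gland starts, from mouse embryonic stem cells and sequenced their RNA beside that of embryonic submandibular glands (SMGs). The placodes came from 129w2, a single mouse ESC line, grown as aggregates of 3000 cells per well in medium with 2% Matrigel, and were collected on day 10. They had received BMP4 at 2 ng/ml on day 3, retinoic acid (RA) at 1 μM with bFGF at 25 ng/ml on day 4, whereas FGF10 at 200 ng/ml was present from day 6. The SMGs were taken from mouse embryos at E12.5, and strain, dissection and pooling of embryos are not given in the sources used here. There were 2 samples per group, and no transgene or deletion is named for either. Nothing in the sources says that the samples of a group came from separate cultures or litters, so the spread between them may be technical. Whole aggregates and whole tissue were measured, so a higher level may come from more cells that express a gene or from more RNA per cell, which cannot be told apart.

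Neurons keep their shape with a set of proteins that other cells use little. Class III β-tubulin, stathmins and microtubule-associated proteins such as doublecortin, MAP2 and tau build and regulate the microtubules of axons and dendrites, and neurofilaments set axon calibre. Young neurons carry GAP43 and the collapsin response mediators in their growth cones, whereas synapsins, synaptotagmins and the SNARE proteins serve the release of transmitter from vesicles. ELAV, CELF and RBFOX proteins bind neuronal transcripts and guide their splicing and stability. In the embryonic SMG, neurons are found in the parasympathetic submandibular ganglion, which forms beside the duct epithelium from neural crest cells.

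FPKM, the number of sequenced fragments of a gene scaled to its transcript length and to all mapped fragments, allows levels of different genes to be set side by side because it is scaled to length. The summed FPKM of the samples was 361963 to 384773, and the number of reads behind it is not known. Together, the 37 genes took 0.988% and 1.02% of this sum in the placodes and 0.103% and 0.1001% in the SMGs. The median gene of the list stood at 64.5 and 67.6 FPKM in the placodes and at 4.46 and 4.41 FPKM in the SMGs. A gene is called detected here if neither sample of a group was below 1 FPKM, which applied to 36 of the 37 genes in the placodes and to 29 in the SMGs. In the placodes 33 of the genes were above 10 in both samples and 13 were above 100, whereas 12 were above 10 in both SMG samples. A log2 fold change is the difference between the group means of log2(FPKM + 1), placodes minus SMGs, and its standard error (SE) is that of a fit across all features. The median log2 fold change of the 37 genes was 3.25, against -0.05 over all 13193 features tested. Both placode samples were above both SMG samples for 36 of the 37 genes, and this held for 41.6% of all tested features. A log2 fold change of at least 1 was found for 35 of the 37 genes, and for 14.2% of all tested features. One gene, Stx1a, was lower in both placode samples.

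**Figure D1:**
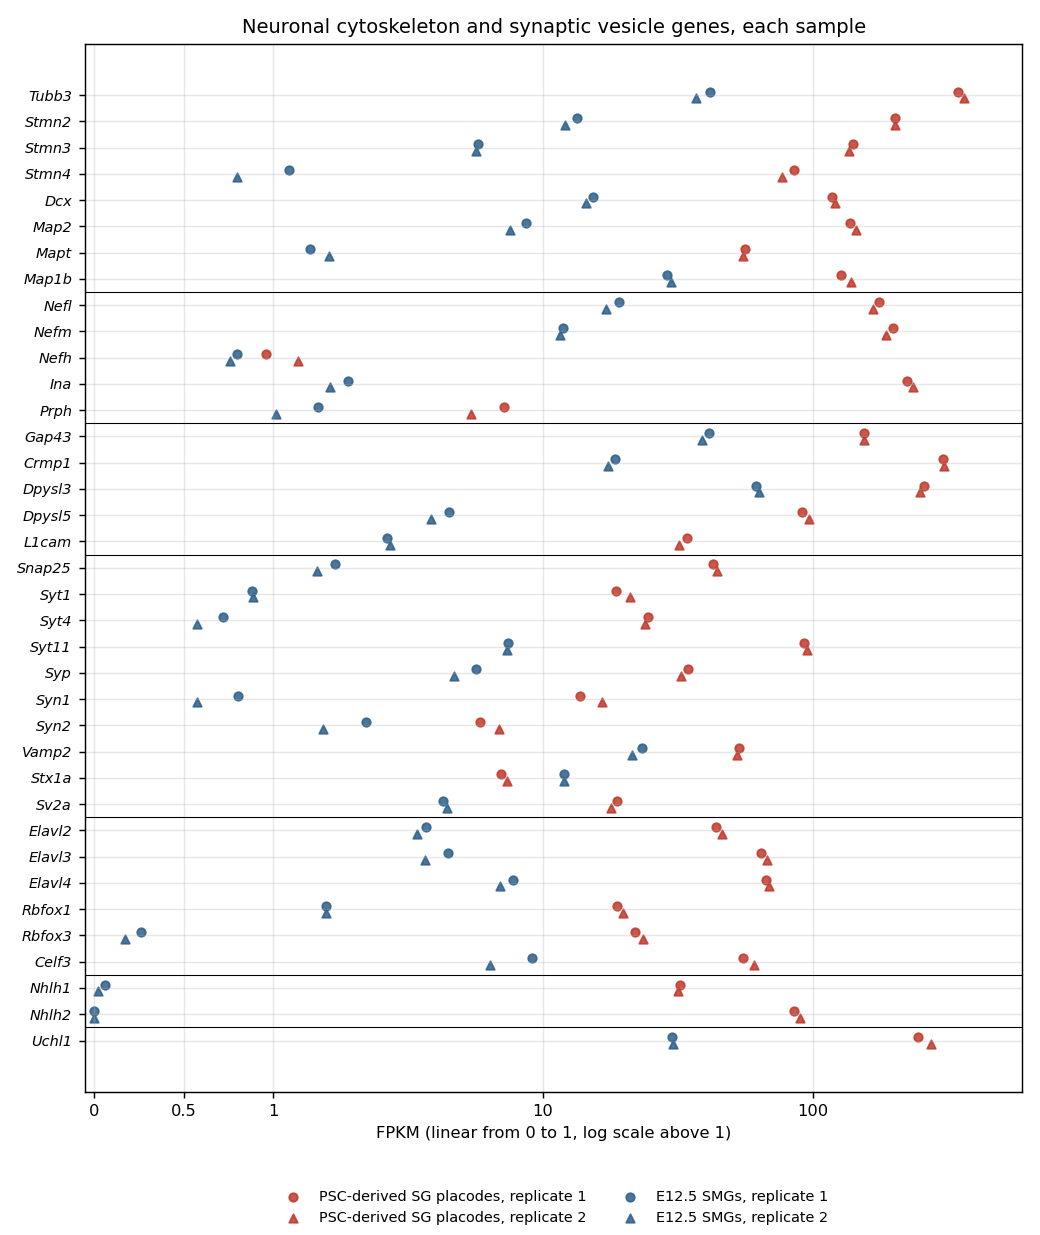
FPKM of the 37 genes in each of the 4 samples, on an axis that is linear from 0 to 1 and logarithmic above 1, with circles for replicate 1 and triangles for replicate 2, red for PSC-derived SG placodes and blue for E12.5 SMGs, and horizontal lines between the roles. The 2 samples of a group sit close together, red lies to the right of blue in 36 rows, and Stx1a is the row in which the order is turned.

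A fit across all 13193 features with a mean FPKM of at least 1 gives the background for these numbers. In this fit, made with limma on log2(FPKM + 1), 76.2% of all tested features differed between the groups at an adjusted p below 0.05, 35.7% being higher and 40.4% lower in the placodes. Of the 37 genes, 36 entered the fit, of which 35 were called higher and 1 lower. Since these same values led to the list, nothing is read from that count.

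The 4 promoters below belong to the genes at the edges of the pattern, namely Tubb3 with the highest level in the placodes, Ina with the largest log2 fold change on the log2(FPKM + 1) scale among the genes with a value above 0 in both groups, Nhlh2, for which the SMGs were listed at 0, and Stx1a, the gene that was lower in the placodes. Each window runs from 250 bases before to 50 bases after a RefSeq transcription start on GRCm38.p6, 5′ to 3′ on the strand of the gene. Capitals mark the E-boxes CAGCTG and CAGATG, which bHLH factors bind, and the letters TCAGCACC or their reverse complement, the left part of the RE1 element that is bound by the repressor REST.

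Tubb3, chr8:123411303-123411602, plus strand: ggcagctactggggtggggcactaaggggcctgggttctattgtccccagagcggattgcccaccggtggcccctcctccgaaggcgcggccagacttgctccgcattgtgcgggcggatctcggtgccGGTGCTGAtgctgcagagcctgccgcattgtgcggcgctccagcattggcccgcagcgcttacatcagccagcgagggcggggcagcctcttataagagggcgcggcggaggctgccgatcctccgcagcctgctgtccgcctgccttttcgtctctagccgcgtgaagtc
Ina, chr19:47014431-47014730, plus strand: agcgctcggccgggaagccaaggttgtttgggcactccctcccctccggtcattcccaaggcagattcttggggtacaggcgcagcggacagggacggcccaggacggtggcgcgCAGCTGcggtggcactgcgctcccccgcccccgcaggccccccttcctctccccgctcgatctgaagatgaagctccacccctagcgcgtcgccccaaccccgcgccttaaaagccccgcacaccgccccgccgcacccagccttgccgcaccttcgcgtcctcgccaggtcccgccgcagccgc
Nhlh2, chr3:102009895-102010194, plus strand: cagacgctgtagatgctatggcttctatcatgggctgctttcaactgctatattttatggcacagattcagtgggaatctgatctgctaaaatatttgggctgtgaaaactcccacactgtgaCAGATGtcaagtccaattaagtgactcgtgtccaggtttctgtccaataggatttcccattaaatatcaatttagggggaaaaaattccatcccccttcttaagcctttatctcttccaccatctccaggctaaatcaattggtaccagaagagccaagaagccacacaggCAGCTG
Stx1a, chr5:135023232-135023531, plus strand: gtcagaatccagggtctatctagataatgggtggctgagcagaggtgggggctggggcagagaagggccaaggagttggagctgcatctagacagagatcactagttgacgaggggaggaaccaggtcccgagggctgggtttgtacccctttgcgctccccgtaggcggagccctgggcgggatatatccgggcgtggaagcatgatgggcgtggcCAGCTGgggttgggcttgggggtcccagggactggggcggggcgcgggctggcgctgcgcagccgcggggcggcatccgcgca

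The windows differ in base composition as well. The Ina window holds 32 CpG dinucleotides, that of Tubb3 26 and that of Stx1a 19, whereas the Nhlh2 window holds 2. In the RefSeq table, 26 of the 37 genes had a promoter, with 46 windows in all because several have more than 1 start. The median number of CpG per window was 11.5 for these 46 windows, from 1 to 41, and 7 for all 32851 windows of the table. On either strand, CAGCTG was found in 32.6% of the 46 windows and in 16.3% of all windows. The corresponding shares were 28.3% and 17.1% for CAGATG, 15.2% and 13.6% for the TATA box TATAAA, and 4.35% and 1.65% for TCAGCACC, which occurred in the windows of Tubb3 and Syn1. The right part of RE1, searched as GGACAGCGC, was in 0 of the 46 windows and in 0.405% of all windows. The windows of 1 gene overlap in part, and a match of letters does not show that a factor was bound.

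All 8 genes of tubulin and microtubule proteins were more than 4-fold higher in the placodes, with log2 fold changes from 2.14 to 5.39 and placode means from 55.8 to 355. Tubb3 (Ensembl gene ENSMUSG00000062380) encodes class III β-tubulin, the usual marker of young neurons, and is found at 123411424 to 123422015 of chromosome 8 (GRCm38). It reached 345 and 365 FPKM in the placodes against 41.6 and 37.1 FPKM in the SMGs (log2 fold change 3.14, SE 0.07). It ranked 1st of the 37 genes in the placodes and 3rd in the SMGs, so it was abundant in both.
The stathmins, which bind tubulin dimers and destabilise microtubules, differed more. Stmn2 reached 202 and 203 FPKM in the placodes and 13.3 and 12.03 FPKM in the SMGs. For Stmn3 the values were 141 and 137 against 5.75 and 5.63, and for Stmn4 they were 85.2 and 77.1 against 1.14 and 0.795. Their log2 fold changes were 3.90 (SE 0.06), 4.39 (SE 0.05) and 5.39 (SE 0.11), so the order of the 3 stathmins by level was the same in both groups and the distance between them was wider in the SMGs.
Dcx, which encodes doublecortin of migrating neurons, was at 118 and 121 FPKM in the placodes and at 15.3 and 14.5 FPKM in the SMGs. Map2, the dendritic microtubule-associated protein, was at 138 and 145 against 8.64 and 7.54. Mapt, which encodes tau, was at 56.3 and 55.2 against 1.37 and 1.61, and thus near the detection level in the SMGs. Map1b, a microtubule-associated protein of growing axons, had the smallest difference of the role, with 127 and 138 in the placodes and 28.8 and 29.9 in the SMGs (log2 fold change 2.14, SE 0.06).

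The 5 intermediate filament genes covered a wide range of log2 fold changes, from 0.23 for Nefh to 6.39 for Ina on the log2(FPKM + 1) scale. Ina (ENSMUSG00000034336, chromosome 19 from 47014698 to 47025327) encodes α-internexin, a filament protein of neurons in the central nervous system. The placodes held 224 and 236 FPKM of Ina and the SMGs 1.90 and 1.62 FPKM (log2 fold change 6.39, SE 0.07). Nefl and Nefm encode the light and medium neurofilament subunits. Nefl was at 176 and 167 in the placodes against 19.1 and 17.1, and Nefm was at 199 and 187 against 11.9 and 11.6. On chromosome 14 the annotated span of Nefl lies within that of Nefm, on the opposite strand, and the 2 genes share exon bases. The strand setting is not given, so reads of the shared bases could have been assigned to either.
Nefh, the heavy subunit that appears late in axon growth, was low in all samples, at 0.958 and 1.23 in the placodes and 0.798 and 0.756 in the SMGs. The groups did not overlap, but Nefh was below an FPKM of 1 in 3 of the 4 samples and did not enter the fit. Prph, the gene of peripherin, a filament protein best known from peripheral neurons, reached 7.14 and 5.43 FPKM in the placodes and 1.46 and 1.02 FPKM in the SMGs (log2 fold change 1.70, SE 0.16).
The make-up of the filament genes therefore differed between the groups. Ina accounted for 36.9% and 39.5% of the FPKM summed over the 5 genes in the placodes and for 5.39% and 5.06% in the SMGs. Nefl took the largest share in the SMGs, with 54.4% and 53.3%, against 28.9% and 28.03% in the placodes. Prph held 1.18% and 0.909% in the placodes and 4.14% and 3.18% in the SMGs, and Nefh 0.158% and 0.206% against 2.27% and 2.36%.

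Of the 5 growth cone genes, all were higher in the placodes. Crmp1, a collapsin response mediator that relays semaphorin signals, was the 2nd most abundant of the 37 genes there, with 304 and 307 FPKM against 18.5 and 17.5 FPKM in the SMGs (log2 fold change 4.01, SE 0.05). Dpysl5, from the same family, was at 91.4 and 96.5 against 4.46 and 3.83. Dpysl3 was at 258 and 250 in the placodes, and at 61.5 and 63.1 it was the most abundant of the 37 genes in the SMGs. Gap43, a membrane-bound protein of axonal growth cones, showed a like pattern, with 155 and 155 in the placodes and 41.1 and 38.8 in the SMGs, where it ranked 2nd. Their log2 fold changes, 2.01 (SE 0.05) for Dpysl3 and 1.93 (SE 0.05) for Gap43, were the smallest of this role. L1cam, an adhesion molecule of axons, was at 34.0 and 31.8 FPKM in the placodes and 2.64 and 2.70 FPKM in the SMGs.

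The 10 genes of synaptic vesicles and membrane fusion were at lower FPKM than the tubulin and microtubule genes, with a median of the placode means of 22.1 against 136 and a median of the SMG means of 3.10 against 10.4. None of the 10 was above an FPKM of 100 in the placodes. Snap25, a SNARE protein of the presynaptic membrane, had the largest difference, with 42.6 and 44.4 FPKM in the placodes and 1.70 and 1.45 FPKM in the SMGs (log2 fold change 4.11, SE 0.08). Among the synaptotagmins, Syt1, the calcium sensor of fast release, was at 18.7 and 21.1 against 0.881 and 0.885. Syt4 was at 24.6 and 23.9 against 0.718 and 0.573. Syt11 was the most abundant gene of this role in the placodes, at 93.0 and 94.9 against 7.41 and 7.36, so the calcium sensor was the lowest of the 3 synaptotagmins there.
Syp, which encodes the vesicle protein synaptophysin, was at 34.6 and 32.6 in the placodes and 5.63 and 4.66 in the SMGs. Syn1, the gene of the vesicle-tethering synapsin I, reached 13.7 and 16.6 FPKM in the placodes and 0.805 and 0.575 FPKM in the SMGs. The difference was smaller for Syn2, with 5.81 and 6.85 against 2.19 and 1.53 (log2 fold change 1.36, SE 0.15). Sv2a, a vesicle glycoprotein, was at 18.8 and 17.9 against 4.27 and 4.41.
Vamp2, the vesicle SNARE synaptobrevin, was at 53.3 and 52.6 FPKM in the placodes and at 23.3 and 21.5 FPKM in the SMGs, and its log2 fold change of 1.21 (SE 0.06) was the smallest among the 35 genes of at least 2-fold. Stx1a (ENSMUSG00000007207, chromosome 5 from 135023482 to 135051100), the syntaxin that pairs with Snap25 and Vamp2, went the other way, with 6.97 and 7.36 in the placodes and 11.95 and 11.9 in the SMGs (log2 fold change -0.66, SE 0.07). Under the 9 alternatives in which its log2 fold change was computed again, it ran from -0.74 to -0.61. The groups did not overlap for Stx1a, so a new pseudocount or a sample left out could not change its sign.

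The 6 RNA-binding genes lay between these roles in level, with placode means from 19.3 to 67.9, and all were more than 6-fold higher on the log2(FPKM + 1) scale. Elavl2, Elavl3 and Elavl4, the neuronal members of the Hu family of mRNA-stabilising proteins, reached 43.8 and 46.2, 64.4 and 67.6, and 67.0 and 68.8 FPKM in the placodes. In the SMGs they were at 3.67 and 3.41, at 4.43 and 3.64, and at 7.73 and 6.93. Elavl4 was the highest of the 3 and Elavl2 the lowest in each of the 4 samples.
Rbfox3, which encodes the NeuN antigen of maturing neurons, was at 21.97 and 23.4 FPKM in the placodes and 0.263 and 0.176 FPKM in the SMGs (log2 fold change 4.28, SE 0.10). Rbfox1 was at 18.8 and 19.8 against 1.56 and 1.57, so Rbfox3 was the higher of the pair in the placodes and the lower in the SMGs. Celf3, a splicing factor of the nervous system, was at 55.3 and 60.7 in the placodes, and its SMG values of 9.06 and 6.38 differed more than those of any other of the 37 genes, by 0.45 on the log2(FPKM + 1) scale.

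Nhlh1 and Nhlh2 encode closely related bHLH factors that mark newborn neurons. Nhlh2 (ENSMUSG00000048540, chromosome 3 from 102010076 to 102015492) reached 85.01 and 89.4 FPKM in the placodes. In the SMGs it was listed at 0 in each sample, so no fold change is given. Nhlh1 was at 32.3 and 31.6 FPKM in the placodes and 0.0647 and 0.0212 FPKM in the SMGs, a ratio of the mean FPKM of 744, which exceeds the 131 of Ina but rests on very low SMG values. Although other neuronal transcripts such as Tubb3, Gap43 and Dcx were above 10 FPKM in the SMGs, neither bHLH gene was detected there. Uchl1, an abundant ubiquitin hydrolase of neurons and neuroendocrine cells, was the 3rd highest of the list in the placodes, at 245 and 274 against 29.9 and 30.4 (log2 fold change 3.06, SE 0.06).

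**Figure D2:**
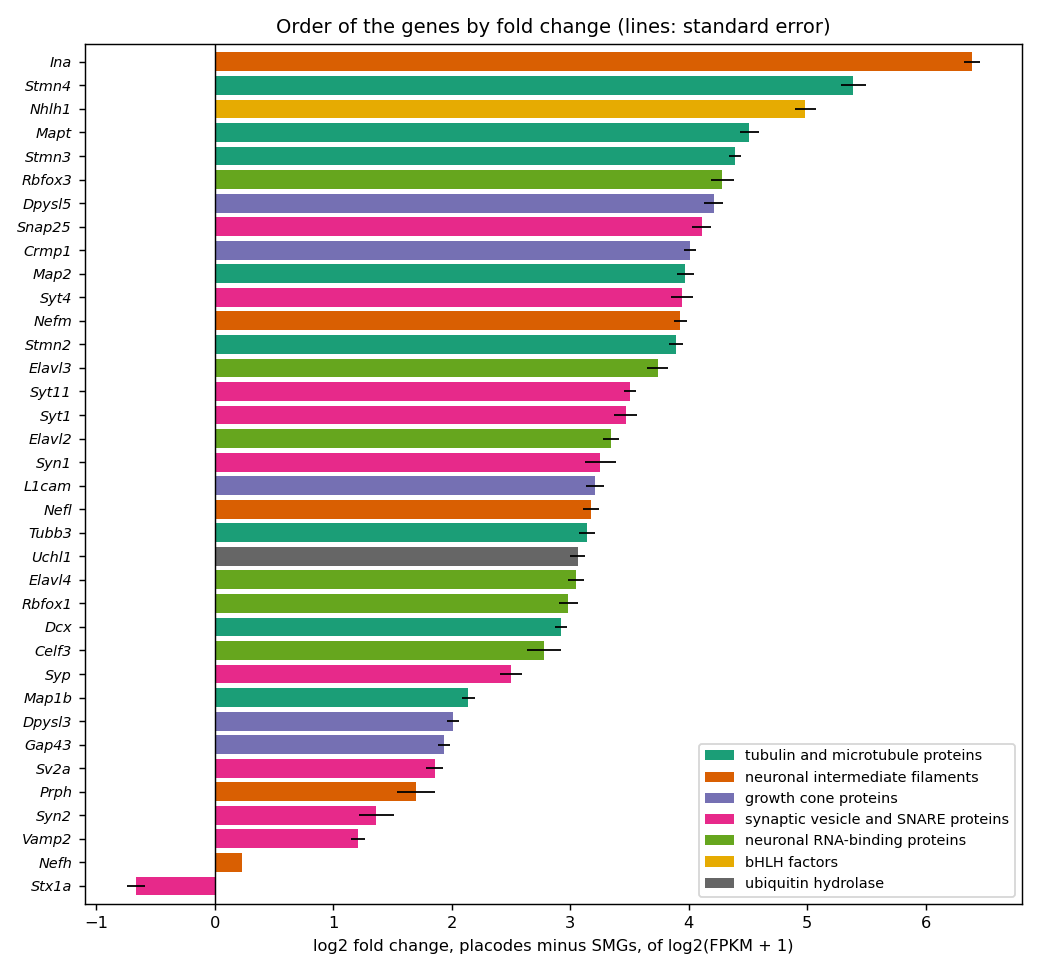
Log2 fold change of 36 of the 37 genes, placodes minus SMGs on the log2(FPKM + 1) scale, ordered by size and coloured by role, with lines for the standard error from the fit (none for Nefh, which was not fitted). Nhlh2, listed at 0 in the SMGs, is left out. On this scale, which reduces the change of low genes such as Nhlh1, Ina is at the top with 6.39, Stx1a at the bottom with -0.66, and 4 of the 7 genes below 2 belong to the synaptic vesicle and fusion role, counting Stx1a.

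Between the 2 samples of a group the 37 genes differed little. The median absolute difference was 0.07 in the placodes and 0.10 in the SMGs on the log2(FPKM + 1) scale, against 0.08 and 0.09 over all tested features. The largest was 0.34 for Prph in the placodes. In the SMGs, 28 of the 37 genes were higher in replicate 1, or 75.7%, against 54.1% of all tested features. Some lists of other genes leaned the same way. Higher in SMG replicate 1 were 9 of 12 ganglion markers, 6 of 8 Schwann cell markers, 21 of 27 widely expressed paralogs and 6 of 7 epithelial markers. In lists closer in function to the 37 genes, the counts were 13 of 22 other cytoskeleton genes and 9 of 17 growth cone and adhesion genes. They were 22 of 36 vesicle and release genes, 7 of 11 RNA-binding and splicing genes and 10 of 20 postsynaptic genes. For the remaining lists they were 7 of 10 progenitor markers, 5 of 8 neuroendocrine genes and 6 of 8 genes of the REST complex. Mesenchyme and blood markers gave 4 of 6 and 4 of 5. What moved with this lean was not tested. In the placodes, 13 of the 37 genes were higher in replicate 1, or 35.1%, against 45.3% of all tested features.

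Exon bases are shared with another annotated gene for 12 of the 37 genes, among them Ina with Nt5c2, Syn1 with Araf, Syn2 with Timp4 and L1cam with Arhgap4. The other 25 share none, and 23 of these exceeded the SMGs 2-fold or more. Reads of similar paralogs, such as the β-tubulins, may also have been split between genes.

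Most of the 37 genes have relatives that are used in many tissues, and these were mixed in direction. Among 27 tested genes that are widely expressed paralogs or relatives, 7 passed an adjusted p of 0.05 as higher in the placodes, 16 passed as lower and 4 did not pass. Their median log2 fold change was -0.33. Uchl3, a relative of Uchl1, rose most, with 42.1 and 41.4 FPKM in the placodes and 14.4 and 19.1 FPKM in the SMGs (log2 fold change 1.28, SE 0.12, adjusted p = 1.31e-04). Vamp8, a SNARE of secretory and endosomal membranes, fell most, with 5.45 and 4.73 against 41.0 and 41.9 (log2 fold change -2.80, SE 0.08, adjusted p = 7.83e-07).
The common relatives of the described genes followed no single direction. Tubb5 was higher by 0.53 (adjusted p = 3.78e-04) and Stmn1 by 1.01 (adjusted p = 3.68e-05) on the log2 scale. Lower log2 values were found for Snap23, the SNAP25 of non-neuronal cells (difference -0.81, adjusted p = 4.34e-05), for Vamp3 (-0.71, adjusted p = 3.33e-05) and for Stx4a (-1.50, adjusted p = 9.86e-06). Elavl1, the ubiquitous Hu protein, was at 20.9 and 20.3 FPKM in the placodes and at 22.4 and 16.4 FPKM in the SMGs, and these values overlapped (adjusted p = 0.533). Rbfox2 did not pass either (log2 fold change 0.09, adjusted p = 0.147).

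Within families the share of the neuronal genes can be read without regard to the scaling of the libraries, and the families were set up after the values had been seen. Elavl2, Elavl3 and Elavl4 together made up 89.4% and 90.0% of the FPKM of the 4 ELAV genes in the placodes and 41.4% and 46.1% in the SMGs. Snap25 made up 62.6% and 64.7% of its family of 3 in the placodes and 5.02% and 4.32% in the SMGs, where Snap23 held 62.8% and 65.97%. Stmn2, Stmn3 and Stmn4 made up 43.6% and 41.9% of the stathmins against 6.39% and 6.51%, so Stmn1 was the main stathmin in both groups.
Rbfox2 likewise remained the main RBFOX transcript, and Rbfox1 and Rbfox3 held 33.2% and 35.4% in the placodes against 2.33% and 2.28%. Tubb3 made up 12.1% and 12.6% of the β-tubulins in the placodes and 4.31% and 3.95% in the SMGs. A larger part of the placode β-tubulins was Tubb2b, with 37.7% and 37.7%, against 8.41% and 7.68% in the SMGs. The share of Stx1a in the 5 plasma membrane syntaxins was nearly equal, at 16.9% and 17.4% in the placodes and 17.7% and 19.2% in the SMGs. Crmp1, Dpysl3 and Dpysl5 together held 84.2% and 83.5% of the collapsin response mediators in the placodes and 81.9% and 84.1% in the SMGs, so these shares overlapped. Sv2a went the other way, since it held 78.8% and 79.0% of the SV2 genes in the placodes and 84.2% and 86.5% in the SMGs.

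**Figure D3:**
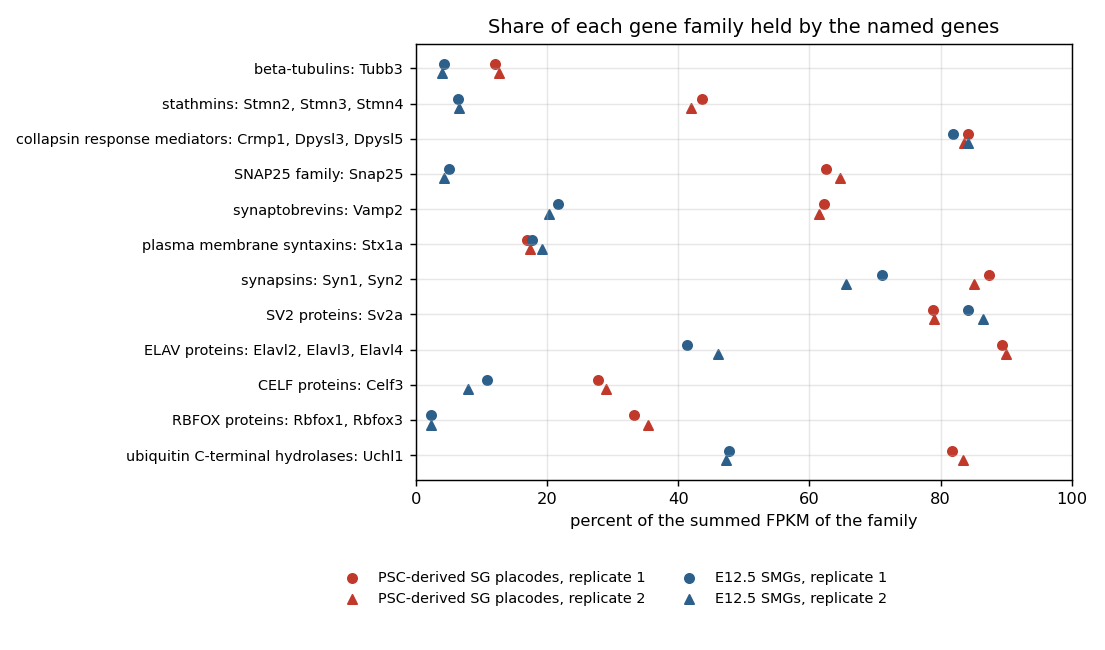
Percent of the summed FPKM of each gene family that is held by the genes named after the colon, in each of the 4 samples (circles for replicate 1, triangles for replicate 2, red for placodes, blue for SMGs). The genes named are all those of the 37 in the family, and the filament family, whose 5 genes are all among the 37, is not drawn. Both red points lie to the right of both blue ones in 9 of the 12 families, the exceptions being Stx1a, Sv2a and the collapsin response mediators.

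Further genes of the same pathways were taken from lists made by function. Of 21 other neuronal cytoskeleton genes that were tested, 19 were higher and 0 lower in the placodes, with a median log2 fold change of 2.38. Kif5c, a kinesin motor of axonal transport, had the highest fold change, with 149 and 153 FPKM against 6.22 and 4.31 FPKM (log2 fold change 4.62, SE 0.14, adjusted p = 9.79e-07). Map9 had the lowest and did not pass, with 3.24 and 3.57 against 3.44 and 4.32 (adjusted p = 0.329).
Among 17 other genes of growth cones and axonal adhesion, 14 were higher and 2 were lower. Cntn2, an axonal adhesion protein, was at 36.0 and 33.9 in the placodes against 0.175 and 0.239 in the SMGs (log2 fold change 4.90, adjusted p = 2.22e-07). Ablim1, an actin-binding protein, was lower, with 5.68 and 5.91 against 15.7 and 18.6 (log2 fold change -1.41, adjusted p = 3.03e-05).
Of 32 further genes of synaptic vesicles and release, 28 were higher and 3 lower, with a median log2 fold change of 1.65. Syt9, another synaptotagmin, was lowest, at 0.226 and 0.386 against 7.67 and 7.47 (log2 fold change -2.72, adjusted p = 3.63e-06). Thus Stx1a was not alone among release genes in being higher in the SMGs.
All but Rbm24 of the 11 other neuronal RNA-binding and splicing genes were higher. Celf4 led with 44.4 and 46.6 against 1.83 and 1.38 (log2 fold change 4.16, adjusted p = 5.24e-07), and Rbm24 did not pass (log2 fold change -0.03, adjusted p = 0.857). Ptbp1 and Ptbp2 were named after their values had been seen. Ptbp2, the splicing repressor of neurons, was at 78.8 and 85.7 FPKM against 29.8 and 28.6 FPKM (adjusted p = 3.35e-06). Ptbp1, its counterpart in non-neuronal cells, had 57.0 and 52.4 against 177 and 174 (log2 fold change -1.67, adjusted p = 1.60e-06).

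Genes of the postsynaptic side and of excitability were more mixed. Of 20 tested, 14 were higher and 5 lower, with a median log2 fold change of 0.99. Nrxn3, a synaptic adhesion gene, was highest, at 13.9 and 14.6 against 0.0882 and 0.0324 (log2 fold change 3.84, adjusted p = 6.41e-07), and the scaffold gene Shank3 was lowest, at 2.99 and 2.96 against 8.02 and 8.25 (log2 fold change -1.20, adjusted p = 3.67e-05). Of 7 tested genes of dense-core vesicles and neuroendocrine cells, 6 were higher and 0 lower. Chgb, a granin, was at 29.3 and 23.3 against 2.20 and 1.83 (adjusted p = 3.29e-06), and Vgf did not pass (log2 fold change 0.20, adjusted p = 0.162). Many genes of neurons are held silent in other cells by REST and its corepressors. Of 8 genes of that complex, 3 were higher, 3 were lower and 2 did not pass. Rest itself was the lowest, with 6.12 and 5.80 FPKM in the placodes and 17.7 and 17.9 FPKM in the SMGs (log2 fold change -1.43, SE 0.07, adjusted p = 7.05e-06), and the corepressor gene Rcor2 was the highest, with 121 and 118 against 22.7 and 20.5 (log2 fold change 2.41, SE 0.06, adjusted p = 6.07e-07).

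**Figure D4:**
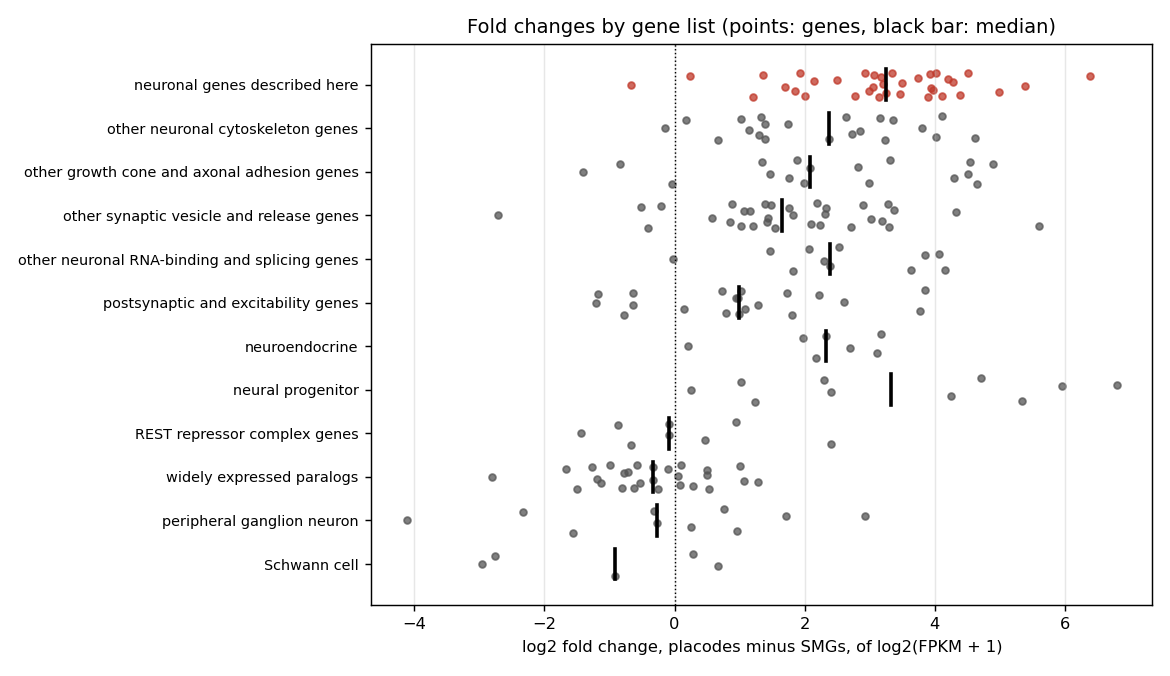
Log2 fold changes, placodes minus SMGs on the log2(FPKM + 1) scale, for the 37 genes (red) and for the tested genes of 11 other lists (grey), with a black bar at the median of each list. Genes listed at 0 in a whole group count in the median and have no point. The medians of the 37 genes and of the 5 related neuronal lists are between 0.99 and 3.25, whereas that of the widely expressed paralogs is -0.33.

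Markers of the other cells that the samples may hold moved with the neuronal genes in some cases. All 10 neural progenitor markers were higher in the placodes, with summed FPKM of 1331 and 1353 against 465 and 448. Vim alone gave 466 and 461 FPKM of the placode sums and 393 and 383 FPKM of the SMG sums, and thus most of the latter. Hes5, a Notch target of progenitors, had the highest fold change (log2 fold change 6.80, adjusted p = 1.23e-07), and Vim the lowest (log2 fold change 0.26, adjusted p = 5.82e-03). All 7 markers of salivary epithelium were lower in the placodes, with summed FPKM of 3.43 and 4.32 against 569 and 553. Cdh1, which encodes E-cadherin, was at 1.11 and 1.18 in the placodes against 28.2 and 24.7 in the SMGs. Krt5, Krt14 and Krt15 were at 0 throughout the placodes. RNA of Cdh1 and of these keratins was thus low or absent in the whole aggregates. By contrast, the study reported staining for E-cadherin and Krt5 in outer buds and duct-like structures of its placodes. It also reported increases by qPCR, of Krt5 and Krt14 relative to aggregates without FGF10 and of Krt5 in the course of differentiation. These qPCR increases were not relative to SMGs. Sox9 and Krt19, further markers used in the study, are outside this list. From RNA-seq of its placodes, the study measured genes of neural ectoderm, skin, mesoderm and endoderm. It reported from these that no cells of other tissues had been generated. It also described genes of development, morphogenesis and the SMG as similar in expression to E12.5 SMGs. How the staining, the qPCR and these RNA-seq readings relate to the whole-aggregate values given here was not tested. All 6 mesenchyme markers and all 4 tested blood markers were also lower in the placodes, with sums of 190 and 184 against 1794 and 1751 for the mesenchyme. The part of these cells in the neuronal values was not tested.

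Since the SMG has its own ganglion, markers of peripheral ganglion neurons were set beside the 37 genes. They were mixed in direction. Of 11 tested, 4 were higher, 4 were lower and 3 did not pass, which is near the 35.7% higher and 40.4% lower of all tested features. The sum of all 12 was 57.1 and 54.6 in the placodes and 68.9 and 61.9 in the SMGs. Hand2, a transcription factor of autonomic neurons that is also found in mesenchyme of the jaw, was at 0.0631 and 0.268 against 19.8 and 18.5 (log2 fold change -4.12, adjusted p = 9.25e-07). Vip, which was singled out after its values had been seen, was at 0 in each of the placode samples, against 6.89 and 4.54. Chrna3, a nicotinic receptor subunit, was the highest of the list, at 20.0 and 20.1 against 1.82 and 1.71 (log2 fold change 2.93, adjusted p = 7.71e-07). Of the 5 tested Schwann cell markers, 3 were lower and 1 was higher in the placodes. Without placode replicate 1, when the minimum was met by a different set of markers, 5 were lower and 1 was higher, and without placode replicate 2, 5 were lower and 2 were higher. Erbb3 was lowest (log2 fold change -2.96, adjusted p = 1.64e-06) and Mbp highest (log2 fold change 0.67, adjusted p = 5.99e-04).

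**Figure D5:**
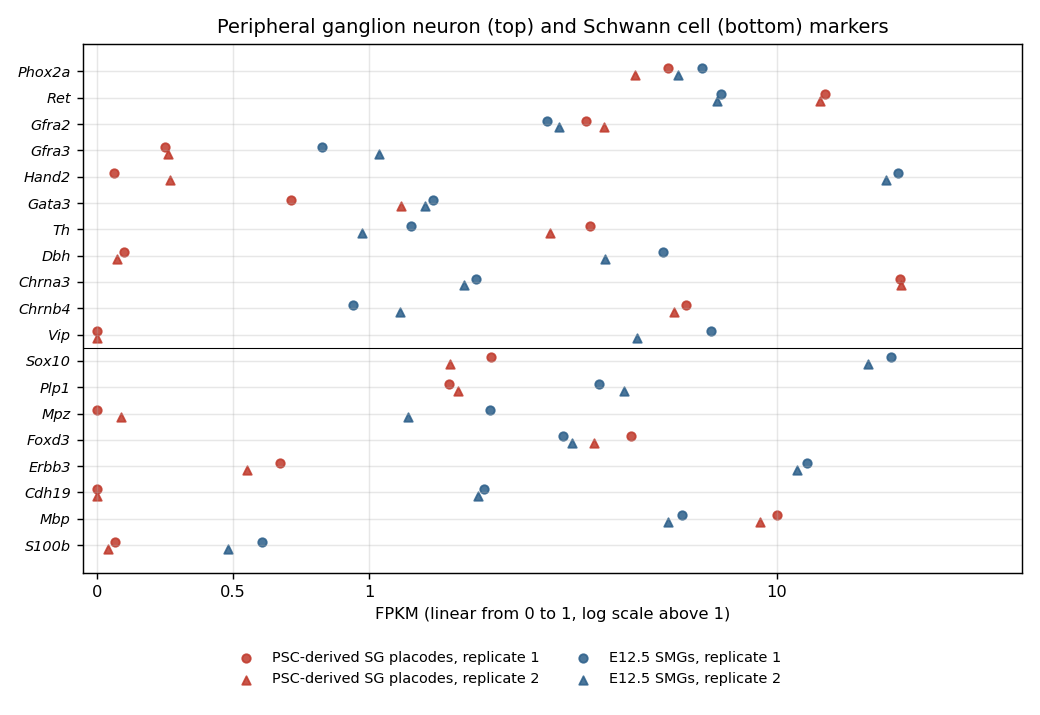
FPKM of 11 of the 12 markers of peripheral ganglion neurons (above the line) and 8 markers of Schwann cells (below it) in each sample, on an axis that is linear from 0 to 1 and logarithmic above 1 (circles for replicate 1, triangles for replicate 2, red for placodes, blue for SMGs). Hand2, Dbh and Vip are among the markers to the right in the SMGs, and Chrna3, Chrnb4, Th, Ret and Gfra2 are to the right in the placodes.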

How the data were processed

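Gene expression was measured by RNA-seq, and the labels assign 2 samples to PSC-derived SG placodes and 2 to E12.5 SMGs. The authors mapped paired-end reads with HISAT2, and the deposited table gives FPKM per gene and sample. GRCm38 and GRCh38 are named in the submitters' processing notes. The HISAT2 version, the annotation, the strand setting and the program behind FPKM are not given in the sources used here. Read depth is unknown, so no counting intervals are given. FPKM depends on the gene model, and reads shared by paralogs or overlapping genes may be split.

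FPKM was transformed as log2(FPKM + 1), and the 13193 features with a mean FPKM of at least 1 were fitted with limma 3.58.1 in R 4.3.3 (lmFit, eBayes with trend, no covariate beside group). Two-sided tests were used with Benjamini-Hochberg adjustment over all of these features, and adjusted p below 0.05 was the threshold. An exact permutation test of 2 against 2 samples cannot go below p = 0.333. The fit was tested on simulated data in which few features changed. Most features differed between the real groups, so that test does not cover the counts given here. No sequencing batch is named, so a batch that follows the groups cannot be told apart from them.

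The 37 genes, the related gene lists and the markers were chosen with earlier results of these data known. Genes named beside the 37 are the tested genes with the highest and the lowest log2 fold change of each list, the widely expressed relatives of described genes, and those marked as chosen after their values had been seen. Some genes to which this applies are not reported here. For the ganglion, Schwann cell, progenitor, epithelial, mesenchyme and blood lists only some of these are named. Gene positions and shared exons are from GENCODE M21 (GRCm38), in which 22022 of 22036 Ensembl genes were found. Promoters are from RefSeq (GRCm38.p6). Alternatives changed the pseudocount, the scaling, the minimum FPKM, the detection level, the trend, a replicate block and the samples used. Figures were drawn with Python 3.11.15.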

Additional observations from a re-analysis of the deposited data

How the results depend on the processing

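Of 36 counts and values computed again under up to 15 alternatives, 26 stayed within the limits set for an unchanged result in each alternative tried for them. The number of the 37 genes at least 2-fold higher was 35, and the number below 0 was 1, under each of 9 alternatives. Both placode samples were above both SMG samples for 36 of the 37 genes, and for 41.6% of all tested features. For Stx1a both were below. A new pseudocount or a sample left out could therefore not change the number below 0. Their median log2 fold change was 3.63 at a pseudocount of 0.1 and 3.67 at 0.01, and 3.22 to 3.38 with 1 sample left out. At a detection level of 5 FPKM, 17 of the 37 genes were detected in the SMGs. With a minimum mean FPKM of 5, which tests fewer genes, 13 vesicle and release genes were higher, 8 postsynaptic genes were higher and 3 lower, and 2 ganglion markers were higher and 2 lower. Schwann cell markers called higher numbered 2 under TPM, median-ratio and quantile scaling and without trend, and 1 to 2 with a sample left out, and those called lower numbered 6 with no minimum and 3 to 5 with a sample left out (5 without either placode sample). The cause was not tested. Replicate numbers are shared by the groups but name no common source, and the deviations of same-numbered samples had a correlation of -0.03 across features. With the number as a replicate block, 4702 features were higher and 5341 lower, against 4716 and 5333, and no list's count left its limits. Unknown depth limits statements on low values such as Nefh, Nhlh1 and Rbfox3 in the SMGs.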
